A study of Arabidopsis thaliana with 24 samples.

Results

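The 9 genes described here are the early light-induced proteins ELIP1 (AT3G22840) and ELIP2 (AT4G14690), the bZIP transcription factors HY5 (AT5G11260) and HYH (AT3G17609), and the B-box genes BBX28 (AT4G27310), BBX29 (AT5G54470), BBX30 (AT4G15248), BBX31 (AT3G21890) and BBX32 (AT3G21150) of Arabidopsis thaliana. They were picked by locus, with their values in these data already known, and all 9 were among the 16183 genes of the deposited count table. Their values are therefore given as a description. Where any of the 9 genes is said below to be past a threshold, the call rests on values known when it was picked. Such calls, their numbers and whether they held under alternatives describe size and spread, and are not evidence of a response. Counts came from 24 MARS-seq libraries, which read the 3′ end of transcripts, with 3 libraries in each of 8 groups. The groups were roots and shoots of seedlings treated with salicylhydroxamic acid (SHAM) for 1, 2 or 3 h, and roots and shoots of seedlings kept in water for 1 h.

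All seedlings were wild-type Columbia-0, 7 days old, raised under 16 h of light and 8 h of dark on medium with sucrose, and each library came from a pool of 30 to 50 seedlings. SHAM is known as an inhibitor of the alternative oxidase of mitochondria. The sample labels name SHAM alone, whereas the treatment protocol describes 30% PEG with SHAM and gives its dose once as 0.1 mM and once as 1 mM, so SHAM below stands for the treatment as labelled. Water lasted 1 h in every control, so at 2 h and 3 h the treatment and the time in solution cannot be told apart. The hour of the day and the light at harvest were not given in the sources used here.

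HY5 is a central activator of light-dependent development. In darkness the COP1 and SPA ubiquitin ligase complex marks HY5 for breakdown, and in light HY5 accumulates and binds the promoters of many light-responsive genes. HYH is its closest relative and partner. ELIP1 and ELIP2 are thylakoid proteins related to the light-harvesting antenna that are made in response to excess light, UV-B or cold and are thought to bind freed chlorophyll. BBX28 to BBX32 carry a single B-box domain. BBX28 is known to bind HY5 and to lower its activity, BBX30 and BBX31 are microproteins that can hold CONSTANS in a repressor complex, and BBX32 opposes the HY5 partner BBX21.

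The stretches just upstream of ELIP1, ELIP2 and BBX28 are shown because these 3 genes were high together in shoots after 1 h of SHAM and HY5 is known to act through promoter elements. Each holds the 250 bases before the annotated gene start in RefSeq TAIR10.1, 5′ to 3′ on the strand of the gene. ELIP1 lies on chromosome 3 on the minus strand, and ELIP2 and BBX28 on chromosome 4 on the plus strand. Capitals mark the G-box CACGTG in ELIP1 and the CCA1 site AAAAATCT or its reverse complement in BBX28.
ELIP1: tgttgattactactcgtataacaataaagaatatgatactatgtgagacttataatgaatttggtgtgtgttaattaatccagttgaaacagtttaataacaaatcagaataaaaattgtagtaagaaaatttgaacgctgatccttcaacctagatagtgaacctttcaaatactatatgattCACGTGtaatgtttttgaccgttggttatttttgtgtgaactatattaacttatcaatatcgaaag
ELIP2: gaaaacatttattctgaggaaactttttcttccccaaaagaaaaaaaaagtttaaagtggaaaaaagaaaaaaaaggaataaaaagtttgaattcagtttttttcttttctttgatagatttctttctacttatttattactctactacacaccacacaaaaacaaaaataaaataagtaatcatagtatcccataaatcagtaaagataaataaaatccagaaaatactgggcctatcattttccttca
BBX28: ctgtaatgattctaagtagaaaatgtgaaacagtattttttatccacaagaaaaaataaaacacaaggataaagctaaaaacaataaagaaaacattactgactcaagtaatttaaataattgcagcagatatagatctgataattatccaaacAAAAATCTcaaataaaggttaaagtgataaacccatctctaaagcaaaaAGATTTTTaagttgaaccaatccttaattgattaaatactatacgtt
The 5 elements searched on both strands were the G-box CACGTG, the hybrid box GACGTG, the as-1 core TGACG, the evening element AAAATATCT and the CCA1 site AAAAATCT. TGACG and GACGTG can share bases. A G-box was found in 2 of the 9 genes, 66 to 61 bases before the start of ELIP1 and 72 to 67 bases before that of BBX30, and 6.49% of 27443 windows of the same length held one. BBX28 held the CCA1 site 96 to 89 bases and, on the other strand, 47 to 40 bases before its start, an element present in 6.69% of windows. No window of the 9 genes held the hybrid box, the as-1 core or the evening element, which 5.89%, 18.6% and 2.36% of all windows held.

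Library totals lay between 862731 and 3622300 counts. Levels are counts scaled to the library total (counts-per-million, CPM), with SD over the 3 libraries of a group. Fold changes are log2 values ± SE from edgeR's quasi-likelihood test after TMM scaling, and a gene was called at an adjusted p under 0.05 over all genes tested. After the filter on low counts, 7 of the 9 genes were tested in roots and 4 in shoots. BBX29 and BBX32 failed it in both organs and HYH, BBX30 and BBX31 in shoots. Counting intervals cover counting error only. The organ labels were checked with markers. The 20 green tissue markers took 13.6% to 18.8% of counts in shoot libraries and 0.0419% to 0.242% in 11 of the 12 root libraries, against 2.14% in root SHAM 1 h replicate 1. The 9 root markers took 0.0669% to 0.128% of counts in SHAM-treated roots and 0.204% to 0.280% in water roots. In these organ samples, fewer cells of a type and less RNA per cell cannot be told apart.

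ELIP1 and ELIP2 stood far above water in shoots after 1 h of SHAM, lay lower at 2 h and were back in the range of water, or close above it, at 3 h. ELIP1 had 50.8, 61.7 and 41.0 CPM after 1 h of SHAM, against 5.19, 3.22 and 4.69 CPM in water. At 2 h it had 18.2, 18.7 and 12.4 CPM and at 3 h 4.37, 2.80 and 5.93 CPM. All 3 libraries at 1 h and at 2 h lay above every water library, while those at 3 h overlapped with water. The log2 fold change of ELIP1 over water was 3.80 ± 0.34 at 1 h, 1.98 ± 0.34 at 2 h and -0.050 ± 0.38 at 3 h.

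ELIP2, the second of these thylakoid proteins, had 61.0, 85.2 and 71.0 CPM in shoots after 1 h of SHAM, against 4.45, 2.58 and 6.07 CPM in water. At 2 h it had 34.2, 36.3 and 22.5 CPM and at 3 h 5.82, 5.94 and 8.15 CPM. The groups did not overlap with water at 1 h and 2 h, and at 3 h 2 of the 3 SHAM libraries lay just below the highest water library. Over water this was a log2 fold change of 4.24 ± 0.31 at 1 h, 2.82 ± 0.30 at 2 h and 0.51 ± 0.33 at 3 h. Mean levels at 1 h were 72.4 ± 12.2 CPM in SHAM and 4.37 ± 1.75 CPM in water (SD, n = 3 each).

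BBX28, the HY5-binding B-box protein, stood far above water in shoots at both 1 h and 2 h. It had 71.1, 70.6 and 99.7 CPM in shoots after 1 h of SHAM, against 7.42, 5.16 and 9.39 CPM in water. At 2 h the libraries held 80.8, 76.6 and 70.5 CPM, and at 3 h 6.55, 5.24 and 5.19 CPM. Every library at 1 h and 2 h lay above every water library, and all 3 libraries at 3 h lay within the range of water. Fold changes on the log2 scale were 3.66 ± 0.24 at 1 h, 3.42 ± 0.24 at 2 h and -0.38 ± 0.27 at 3 h.

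HY5 lay in the opposite direction in shoots. Its libraries held 37.2, 31.9 and 35.1 CPM after 1 h of SHAM, against 171, 102 and 112 CPM in water. At 2 h they held 37.5, 35.4 and 50.2 CPM and at 3 h 81.5, 79.4 and 137 CPM. All SHAM libraries at 1 h and 2 h were below every water library, and the groups overlapped at 3 h. HY5 had a log2 fold change of -1.65 ± 0.32 at 1 h, -1.56 ± 0.31 at 2 h and -0.35 ± 0.30 at 3 h. HY5 stability is known to be set at the protein level as well, which these RNA counts do not measure.

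**Figure D1:**
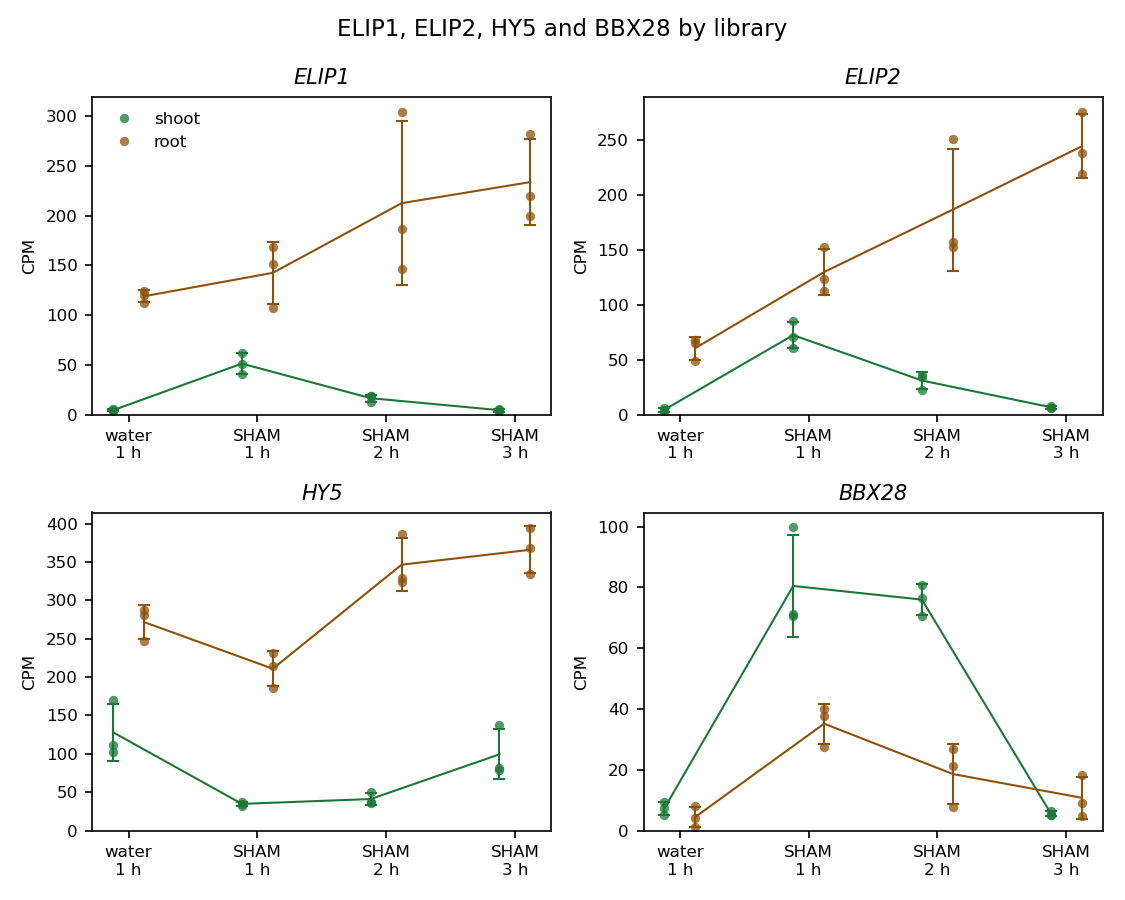
CPM of ELIP1, ELIP2, HY5 and BBX28 in each library (points), with the group mean and SD (line and bars), over water and 1, 2 and 3 h of SHAM in shoots (green) and roots (brown). In shoots the means of ELIP1, ELIP2 and BBX28 are highest at 1 h, at 51.2, 72.4 and 80.5 CPM, and that of HY5 is lowest, at 34.7 CPM. For BBX28 and HY5 the shoot libraries at 1 h and 2 h of SHAM overlap.

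Of the 4 genes tested in shoots, 3 were past the threshold and higher and 1 was past it and lower at both 1 h and 2 h, where 16.8% and 15.8% of all 8570 genes were called in either direction. These split into 9.36% higher and 7.49% lower at 1 h and 8.38% higher and 7.44% lower at 2 h, or 802 and 642 genes at 1 h and 718 and 638 at 2 h. With scaling by total count alone the split turned, to 542 higher and 988 lower at 1 h and 604 higher and 703 lower at 2 h. At 3 h edgeR called 0 of the 4, against 9% of all genes (6.31% higher and 2.68% lower), with 0 at an unadjusted p under 0.05 and 0 called by DESeq2. Since the genes were chosen for their values, nothing is read from these counts.

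Roots gave another course. ELIP1 had 169, 108 and 151 CPM after 1 h of SHAM, against 120, 124 and 113 CPM in water, and the groups overlapped. At 2 h it had 186, 146 and 305 CPM and at 3 h 199, 220 and 282 CPM, all above every water library. Its log2 fold change was 0.49 ± 0.28 at 1 h, 1.17 ± 0.29 at 2 h and 1.33 ± 0.29 at 3 h, with the last 2 past the threshold. The call at 2 h was lost when root SHAM 2 h replicate 3, the highest library, was left out (0.83 ± 0.27) and when libraries were scaled by total count alone (0.83 ± 0.29).

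ELIP2 was higher at each time in roots. It had 124, 153 and 113 CPM after 1 h of SHAM, 152, 157 and 251 CPM after 2 h and 238, 219 and 276 CPM after 3 h, against 68.2, 48.7 and 64.8 CPM in water. No SHAM library overlapped with water, and the means stood in the order of time. The log2 fold change was 1.34 ± 0.27 at 1 h, 1.95 ± 0.27 at 2 h and 2.36 ± 0.27 at 3 h, past the threshold each time. Without root SHAM 1 h replicate 1, the library with the high green marker share, the value at 1 h was 1.46 ± 0.30.

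BBX28 was higher in roots as well, and highest at 1 h. It had 27.6, 40.0 and 37.8 CPM after 1 h of SHAM, 21.1, 26.9 and 7.79 CPM after 2 h and 18.3, 4.83 and 9.18 CPM after 3 h, against 4.23, 1.16 and 7.96 CPM in water. Libraries at 1 h lay above every water library, and those at 2 h and 3 h overlapped with water. The log2 fold change was 3.08 ± 0.58 at 1 h, 2.21 ± 0.60 at 2 h and 1.45 ± 0.61 at 3 h, with the first 2 past the threshold. At 1 h it was 3.30 ± 0.62 without the green-rich library. The call at 2 h was lost without root water replicate 1 (2.15 ± 0.72) or replicate 2 (1.96 ± 0.63) and without root SHAM 2 h replicate 1 (2.12 ± 0.67) or replicate 2 (1.88 ± 0.65).

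HY5 in roots had 186, 215 and 232 CPM after 1 h of SHAM, 324, 330 and 386 CPM after 2 h and 395, 334 and 369 CPM after 3 h, against 281, 247 and 287 CPM in water. By CPM every library at 1 h was below water and every library at 2 h and 3 h was above it. The log2 fold change after TMM scaling was -0.13 ± 0.20 at 1 h, 0.68 ± 0.20 at 2 h and 0.79 ± 0.20 at 3 h, with the last 2 past the threshold. At 1 h the sign turned without root SHAM 1 h replicate 1 (0.036 ± 0.23). The call at 2 h held in 3 of 13 alternatives and was lost when any 1 of the 6 libraries compared was left out (0.61 to 0.79), and that at 3 h held in 10 of 13. At 3 h it was lost without root water replicate 1 (0.84 ± 0.26) or replicate 2 (0.78 ± 0.24) and with scaling by total count alone (0.42 ± 0.20).

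Among the 7 genes tested in roots, 2 were past the threshold at 1 h, 4 at 2 h and 3 at 3 h, all higher in SHAM, where 12.2%, 14% and 16.4% of all 10642 genes were called in either direction. Higher calls made up 7.01%, 8.6% and 9.99% of all genes and lower calls 5.22%, 5.4% and 6.4%, or 746 higher and 556 lower genes at 1 h, 915 and 575 at 2 h and 1063 and 681 at 3 h. With scaling by total count alone this split turned, to 446 higher and 974 lower at 1 h, 575 and 1301 at 2 h and 653 and 1563 at 3 h. By CPM, 2 of the 9 genes lay above water without overlap and 2 below it at 1 h, 4 above and 0 below at 2 h, and 3 above and 0 below at 3 h. The same was true of 9.08%, 8.52% and 8.29% of all genes above water and of 26.1%, 29.2% and 29.5% below it. In shoots 4 genes lay above and 1 below at 1 h, 4 above and 2 below at 2 h, and 1 above and 1 below at 3 h, against 8.17%, 10% and 9.98% of all genes above and 16%, 15% and 11.2% below. Root marker shares were lower in every SHAM-treated root library than in water roots, and their part in the root values was not tested.

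**Figure D2:**
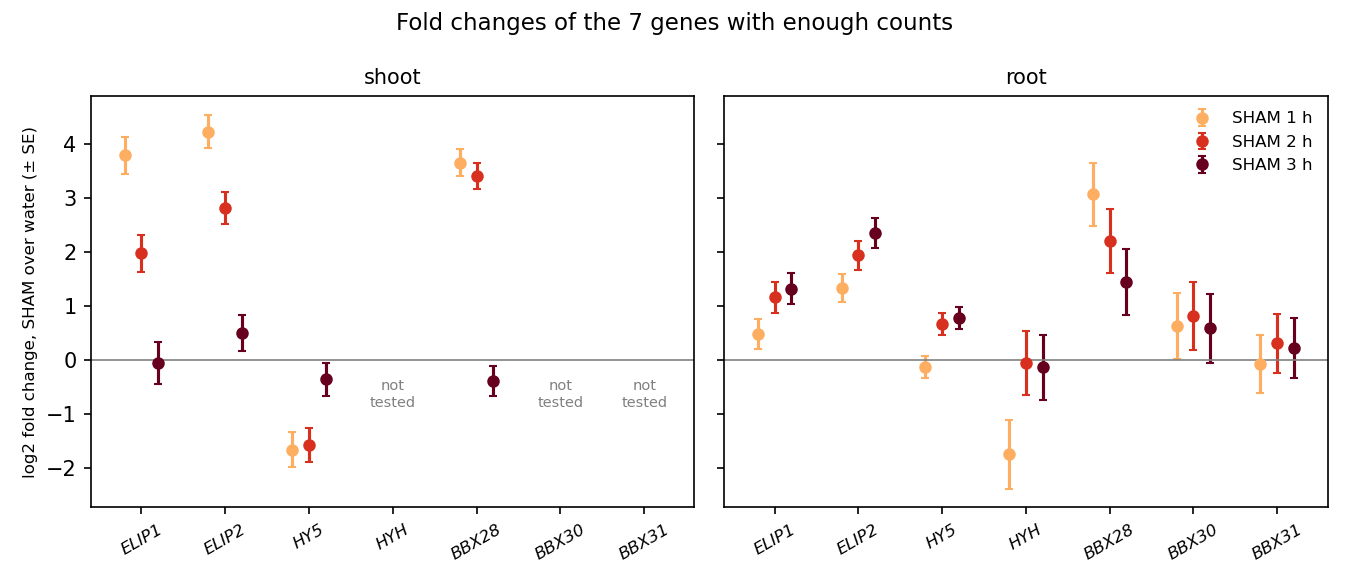
Log2 fold change of SHAM over water, with SE, at 1, 2 and 3 h (light to dark) for the 7 genes that passed the filter on low counts in roots, in shoots (left) and roots (right). In shoots ELIP1, ELIP2 and BBX28 lie between 3.66 and 4.24 at 1 h, while in roots ELIP2 has its lowest value, 1.34, at 1 h and its highest, 2.36, at 3 h.

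The organ difference is the log2 effect of SHAM in shoots minus that in roots, fitted over all 24 libraries. At 1 h it was 3.18 ± 0.43 for ELIP1 and 2.77 ± 0.41 for ELIP2, so both were raised more over water in shoots, and -1.63 ± 0.36 for HY5, which lay lower in shoots. It was 0.49 ± 0.67 for BBX28. At 2 h HY5 stood at -2.31 ± 0.35, ELIP1 at 0.73 ± 0.44, ELIP2 at 0.80 ± 0.41 and BBX28 at 1.16 ± 0.67. At 3 h ELIP2 stood at -1.91 ± 0.44, the opposite sign to 1 h, and ELIP1 at -1.45 ± 0.48. Of 7 genes tested, 3, 1 and 1 were past the threshold at 1, 2 and 3 h, against 5.93%, 3.34% and 1.73% of all 11704 genes. Calls with a larger effect in shoots were 1.97%, 0.82% and 0.436% of all genes, and those with a smaller one 3.96%, 2.52% and 1.29%, or 231 and 463 genes at 1 h, 96 and 295 at 2 h and 51 and 151 at 3 h. With scaling by total count alone these were 247 and 319 at 1 h, 184 and 160 at 2 h and 124 and 63 at 3 h, so the split turned at 2 h and 3 h, and median-ratio size factors gave 272 and 339 at 1 h. At 1 h the members past the threshold were 2 above 0 and 1 below, and at 2 h and 3 h 1 below each.

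The call for ELIP2 at 3 h held in 6 of 17 alternatives. It was lost without root water replicate 1, 2 or 3 (-1.86, -1.67 and -1.85), without shoot water replicate 1 or 3 (-1.97 and -1.54), without root SHAM 3 h replicate 1 or 3 (-1.80 and -1.73) and without shoot SHAM 3 h replicate 1 or 2 (-1.88 and -1.84). It was also lost with scaling by total count alone (-1.52 ± 0.44) and with no filter on low counts (-1.95 ± 0.50). HY5 at 3 h, at -1.19 ± 0.35, was past the threshold only without shoot SHAM 3 h replicate 3 (-1.51 ± 0.35).

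In water, ELIP1 was lower in shoots than in roots, although the protein is known from chloroplasts. It averaged 4.37 ± 1.02 CPM in shoots and 119 ± 5.81 CPM in roots (SD, n = 3 each), a log2 difference of -3.67 ± 0.34, and ELIP2 averaged 4.37 ± 1.75 CPM in shoots and 60.6 ± 10.4 CPM in roots, a difference of -2.65 ± 0.32. By CPM, even the highest shoot group of ELIP1, SHAM at 1 h with a mean of 51.2 CPM, lay below every root library. For ELIP2 the shoot SHAM 1 h libraries overlapped with root water by CPM. Both statements depend on scaling, since total count alone moved the median shoot to root difference in water by -1.07 against TMM. After TMM scaling, ELIP1 in shoots at 1 h stood 3.80 above water, beside a water difference of -3.67. For ELIP2 these values were 4.24 and -2.65. Low green marker shares in water roots, 0.0770% to 0.115%, stood beside these ELIP levels.

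HY5 in water had a log2 difference of -0.025 ± 0.25 between shoots and roots after TMM scaling. By CPM its mean was 128 ± 37.2 in shoots and 272 ± 21.8 in roots, and with scaling by total count alone the difference was -1.10 ± 0.24 and past the threshold. That scaling moved the median of all genes by -1.07. BBX28 stood at 1.65 ± 0.51, a call that was lost with scaling by total count alone (0.60 ± 0.51), without root water replicate 1 (1.42 ± 0.59) or 2 (1.25 ± 0.52), and without shoot water replicate 3 (1.41 ± 0.62). Of the 7 genes tested in water, 1 was past the threshold and higher in shoots and 3 were lower, where 50.2% of all genes were called, 25.1% higher and 25.1% lower in shoots. By CPM 0 of the 9 lay above roots without overlap and 6 lay below, against 13.8% and 55.7% of all genes.

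Ordered by mean CPM, the root groups led for ELIP1 and HY5, and the shoot SHAM groups at 1 h and 2 h led for BBX28. Scaling by total count moved the median shoot to root difference in water by -1.07 against TMM. After TMM scaling HY5 in water differed by -0.025 ± 0.25 between organs, so steps between root and shoot groups depend on the scaling. For ELIP1 the order was root SHAM at 3 h, 2 h and 1 h, root water, shoot SHAM at 1 h and 2 h, shoot water and shoot SHAM at 3 h, and neighbours overlapped except around the step to shoot SHAM at 1 h and at the steps on either side of shoot SHAM at 2 h. For HY5 it was root SHAM at 3 h and 2 h, root water, root SHAM at 1 h, shoot water, and shoot SHAM at 3 h, 2 h and 1 h, with overlap between the first 2 root groups, between shoot water and shoot SHAM at 3 h and between shoot SHAM at 2 h and 1 h. For BBX28, shoot SHAM at 1 h and 2 h overlapped with each other and lay apart from root SHAM at 1 h, which lay apart from root SHAM at 2 h, and the groups below overlapped with their neighbours.

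The other 5 genes had few counts. HYH, the HY5 relative, had 6.37, 0.616 and 4.36 CPM in roots after 1 h of SHAM, against 14.8, 20.9 and 8.50 CPM in water, with all 3 SHAM libraries below water. Its log2 fold change at 1 h was -1.74 ± 0.64 and not past the threshold, except without root SHAM 1 h replicate 1 (-2.32 ± 0.72). At 2 h and 3 h its root means were 10.9 ± 5.22 and 10.2 ± 4.22 CPM and overlapped with water. In shoots HYH had 0 counts at 2 h, against 14 in water, which is at least 5.11-fold lower at a floor of 3 counts over the group. Shoot water replicate 1 held 10 of those 14 counts.

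BBX31, the microprotein, had 9.03, 3.14 and 2.73 CPM in shoots after 1 h of SHAM, against 0.742, 1.93 and 2.21 CPM in water, without overlap. These were 8, 6 and 6 counts against 1, 3 and 8, so the separation by CPM rests on library totals. At 3 h it had 2 counts in all, against 12 in water, a ratio of 0.156 (95% counting interval 0.0170 to 0.702). In roots its means stayed between 7.49 and 9.11 CPM over the 4 groups, and all of them overlapped with water. BBX30, the second microprotein, had root means of 4.02 to 5.59 CPM and shoot means of 0.184 to 0.776 CPM. In water it had 2 counts in shoots and 18 in roots, a ratio of 0.0790 (0.00889 to 0.330). Its fitted difference, -2.53 ± 1.03, was past the threshold in 5 of 11 alternatives and lost it without root water replicate 1, 2 or 3 or shoot water replicate 1 or 2 (-2.70 to -2.17), and with no filter on low counts (-2.44 ± 1.02).

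BBX32, known to oppose BBX21, had 0.804 CPM on average in shoots after 1 h of SHAM, 1.63 CPM after 2 h and 2.90 CPM after 3 h, against 0.399 CPM in water. The libraries at 3 h held 10, 6 and 4 counts, against 0, 1 and 2 in water, a ratio of 6.25 (1.85 to 32.8), and at 2 h the ratio was 3.96 (1.09 to 21.7). By CPM both SHAM groups lay above water without overlap. At 2 h the libraries held 7, 5 and 1 counts, so SHAM replicate 3 and water replicate 2 each held 1 count. The separation at 2 h therefore rests on library totals. BBX29 had group sums of 0 to 4 counts in shoots and 4 to 15 in roots, with 11 of the 15 in root SHAM 1 h replicate 3.

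**Figure D3:**
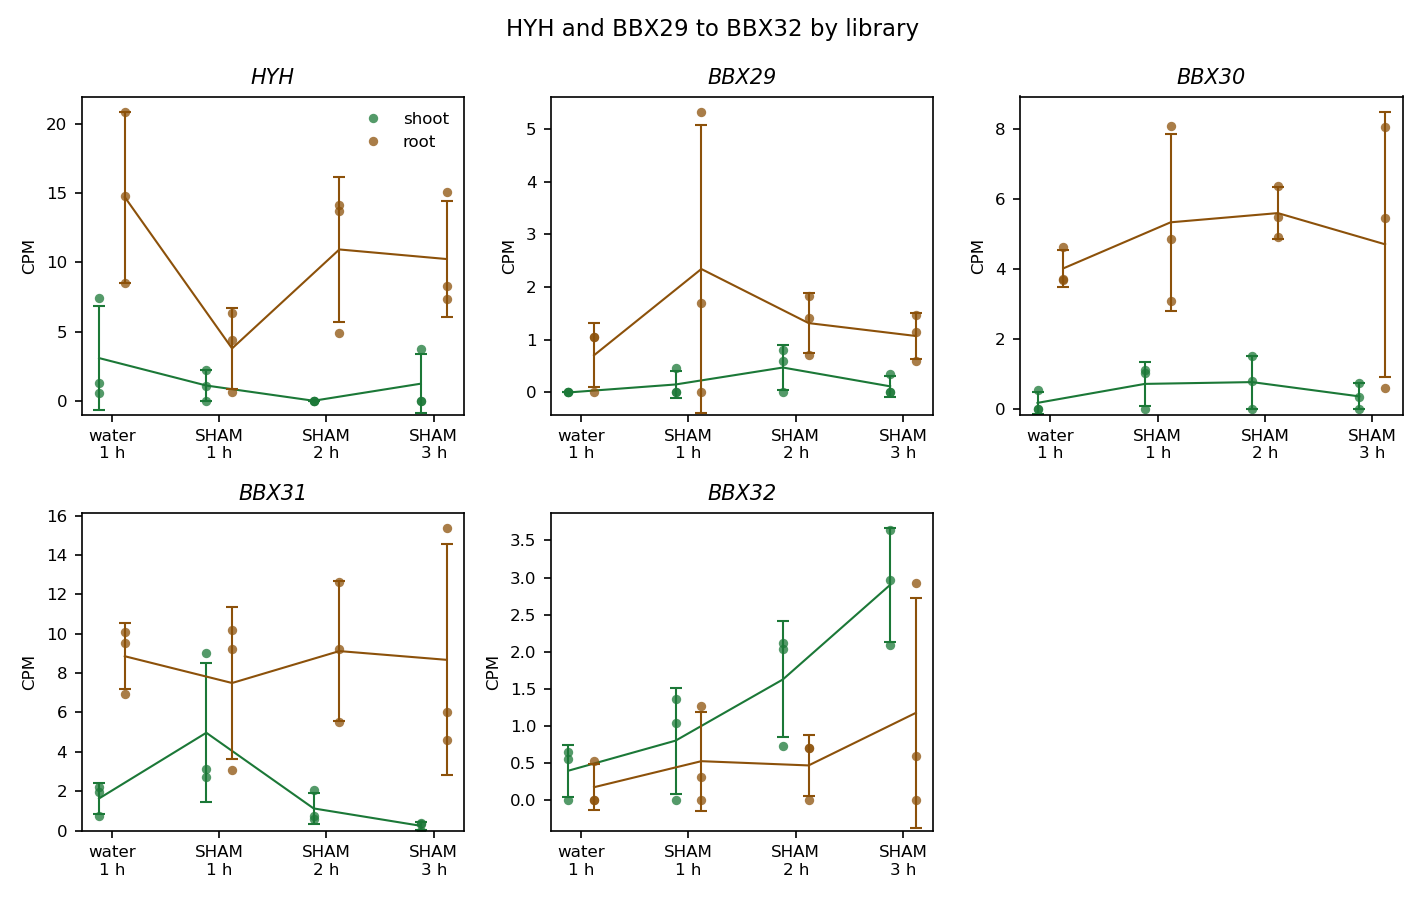
CPM of HYH and BBX29 to BBX32 in each library (points), with mean and SD, over water and 1, 2 and 3 h of SHAM in shoots (green) and roots (brown). BBX32 has its highest group mean, 2.90 CPM, in shoots at 3 h, and root levels of BBX30 and BBX31 overlap between SHAM and water except BBX30 at 2 h.

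The rest of the light signalling pathway was followed in 6 lists without the 9 genes: other B-box genes, photoreceptors, the COP1, SPA and DET1 repressors, PIF and other light transcription factors, targets of HY5 and of UV-B, and antenna-like proteins with chlorophyll synthesis. Together 83 of their 100 loci were in the table, and 63 were tested in shoots and 49 in roots. In shoots 14 rose and 8 fell after 1 h of SHAM, 9 rose and 7 fell after 2 h, and 3 rose and 6 fell after 3 h. Of all genes, 9.36% rose and 7.49% fell at 1 h, 8.38% and 7.44% at 2 h, and 6.31% and 2.68% at 3 h. These shares also stand beside the shoot counts of single lists below. The median log2 fold change of the light genes in shoots was 0.048, -0.076 and -0.32, against 0.046, -0.0027 and 0.0032 over all genes. In roots 4 rose and 1 fell at 1 h, 2 and 2 at 2 h, and 3 and 2 at 3 h. There, 7.01% of all genes rose and 5.22% fell at 1 h, 8.6% and 5.4% at 2 h, and 9.99% and 6.4% at 3 h.

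Among the other B-box genes, 4 rose and 3 fell of 16 tested in shoots after 1 h of SHAM, and 4 rose and 3 fell after 2 h. Those that fell were BBX7, BBX14 and BBX15 at both times. At 2 h their log2 fold changes were -1.41 ± 0.44, -1.19 ± 0.22 and -1.39 ± 0.20. BBX2, a CONSTANS-like gene, had 14.7, 24.6 and 28.7 CPM after 1 h of SHAM, against 1.48, 3.87 and 6.90 CPM in water, a rise of 2.60 ± 0.40 (edgeR adjusted p = 0.000492). BBX2 was also higher at 2 h (1.81 ± 0.40, edgeR adjusted p = 0.00700) and 3 h (1.93 ± 0.40, edgeR adjusted p = 0.00706). BBX6 rose by 2.13 ± 0.37 at 1 h and by 2.14 ± 0.37 at 2 h (edgeR adjusted p = 0.00140 and 0.00133). BBX7 fell by 2.62 ± 0.53 at 1 h (edgeR adjusted p = 0.00372), and BBX25 rose by 1.73 ± 0.33 at 2 h (edgeR adjusted p = 0.00297). In roots BBX11 rose by 1.67 ± 0.32 at 2 h and by 1.53 ± 0.32 at 3 h (edgeR adjusted p = 0.00306 and 0.00452).

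Among the transcription factors, 3 of 11 tested rose in shoots at 1 h. PIF5, a phytochrome-interacting factor that promotes elongation, had 179, 195 and 270 CPM after 1 h of SHAM and 228, 279 and 231 CPM after 2 h, against 50.4, 67.7 and 64.6 CPM in water. The groups did not overlap, and the log2 fold changes of PIF5 were 2.05 ± 0.21 and 2.08 ± 0.21 (edgeR adjusted p = 1.68e-05 and 1.71e-05). At 3 h PIF5 stood at 1.01 ± 0.20 (edgeR adjusted p = 0.00559), a call that was lost when all 24 libraries were fitted together (edgeR adjusted p = 0.387). PIF7 rose by 1.26 ± 0.24 at 1 h (edgeR adjusted p = 0.00282), a call that was likewise lost with all 24 libraries (edgeR adjusted p = 0.058). Of 10 photoreceptors tested in shoots at 1 h, 1 rose and 3 fell. ZTL, a blue-light receptor that targets clock proteins for breakdown, fell by 0.93 ± 0.24 (edgeR adjusted p = 0.0147).

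Of 9 HY5 and UV-B targets tested in shoots, 3 rose and 1 fell at 1 h, 0 rose and 1 fell at 2 h, and 0 rose and 3 fell at 3 h. CHS, the entry enzyme of flavonoid synthesis, had 597, 471 and 345 CPM after 1 h of SHAM, against 78.6, 89.6 and 96.9 CPM in water, a rise of 2.66 ± 0.26 (edgeR adjusted p = 1.42e-05). At 3 h CHS fell to 38.1 CPM on average, against 88.4 CPM in water, a log2 fold change of -1.21 ± 0.26 (edgeR adjusted p = 0.00875). That call was lost without shoot SHAM 3 h replicate 1 (-1.13, edgeR adjusted p = 0.0553). MYBD, a MYB-like factor that acts downstream of HY5, fell by 1.06 ± 0.22 at 2 h (edgeR adjusted p = 0.00572). In roots UGT84A1, a glucosyltransferase of sinapate metabolism, had 10.2, 9.55 and 4.85 CPM after 1 h of SHAM, against 69.8, 45.2 and 50.4 CPM in water. UGT84A1 fell by 2.49 ± 0.46 (edgeR adjusted p = 0.00355).

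Of 15 antenna-like and chlorophyll synthesis genes in shoots, 3 rose and 1 fell at 1 h. CHLH, a subunit of magnesium chelatase, rose to 246, 433 and 531 CPM at 1 h, against 125, 159 and 222 CPM in water (edgeR adjusted p = 0.00323). SEP2, a stress-enhanced protein of the same extended antenna family as the ELIP proteins, had 98.2, 96.2 and 79.7 CPM after 1 h of SHAM, against 285, 284 and 305 CPM in water, and fell by 1.43 ± 0.20 (edgeR adjusted p = 0.00025). At 2 h SEP2 fell by 1.31 ± 0.20 (edgeR adjusted p = 0.000505). Of 7 clock genes tested in shoots, 2 rose and 2 fell at 1 h and 3 rose and 1 fell at 2 h. ELF4, of the evening complex, fell by 2.65 ± 0.25 at 1 h (edgeR adjusted p = 1.08e-05). PRR7, PRR5 and GI rose at 2 h by 2.56 ± 0.55, 2.45 ± 0.43 and 1.49 ± 0.33 (edgeR adjusted p = 0.00612, 0.00138 and 0.00749).

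**Figure D4:**
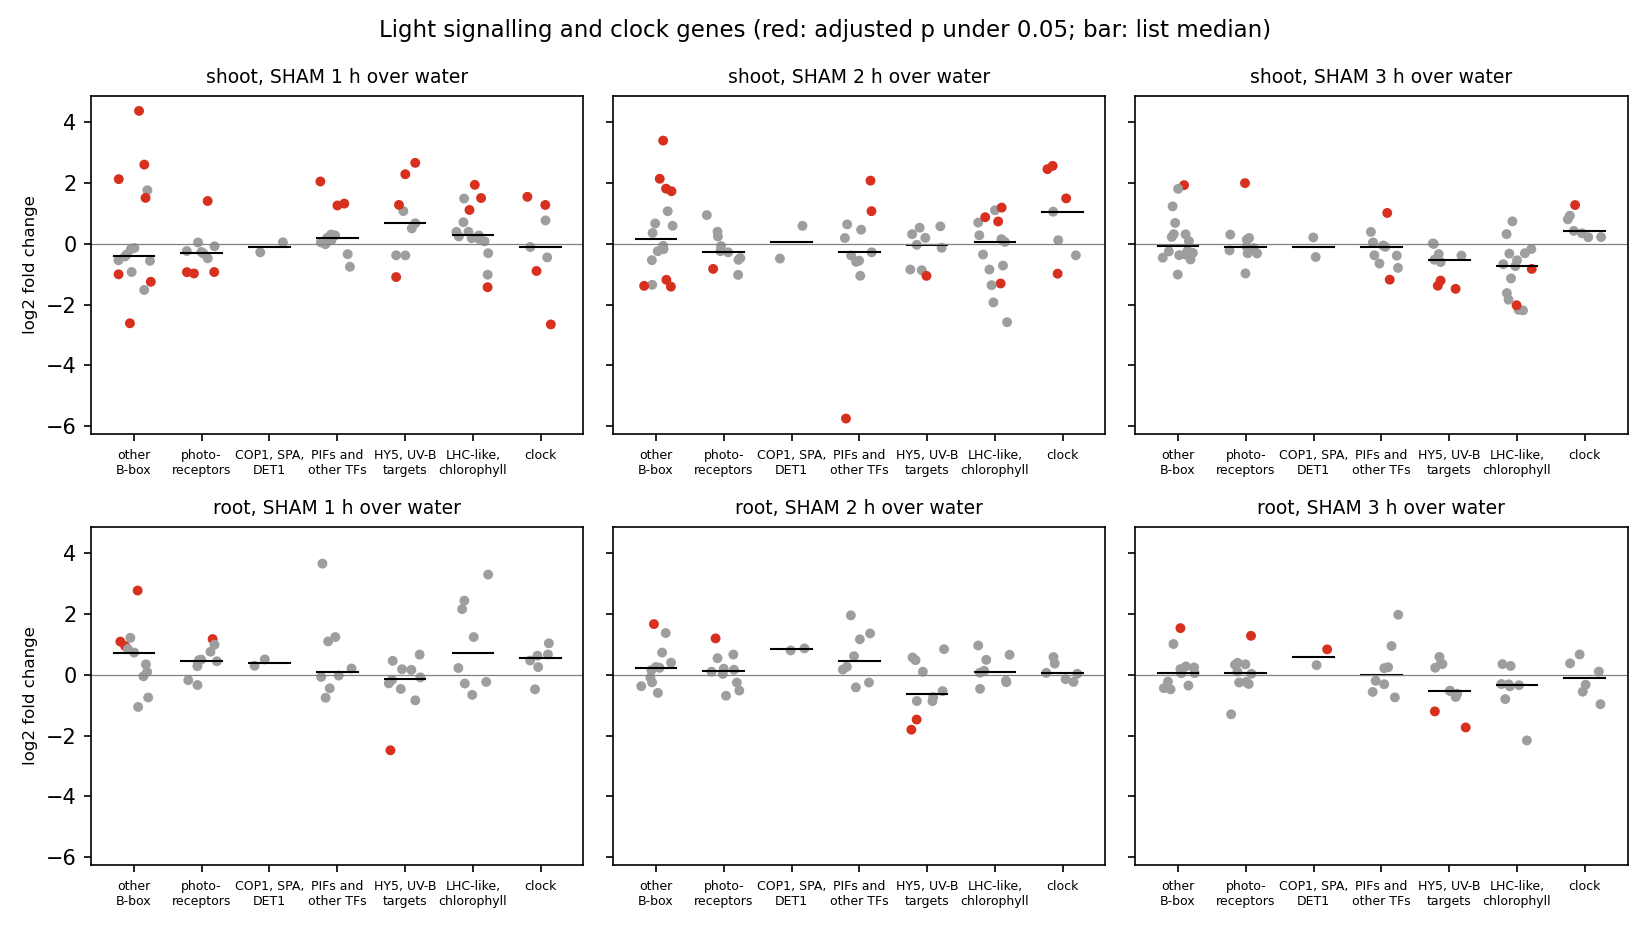
Log2 fold change of SHAM over water for each tested gene of the 6 light signalling lists and the clock list, in shoots (top) and roots (bottom) at 1, 2 and 3 h, with red points for an edgeR adjusted p under 0.05 and a bar at the list median. Of 63 light genes tested in shoots 14 rose and 8 fell at 1 h, against 4 and 1 of 49 in roots. Of all genes, 9.36% rose and 7.49% fell in shoots at 1 h, and 7.01% and 5.22% in roots. The lowest point, at -5.75 in shoots at 2 h, is FHY1, which had 0 counts after SHAM, so that its fitted value is no measure of size.

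The shoot calls at 1 h ranged from 17 to 23 when any library was left out. At 2 h 16 calls fell to 10 without shoot water replicate 1 or 2 or without shoot SHAM 2 h replicate 1, and at 3 h 9 fell to 3 and 4 without shoot SHAM 3 h replicates 1 and 2. Root calls were few, and their ranges were 1 to 6, 1 to 5 and 1 to 4 at 1, 2 and 3 h, with 1 call left without root water replicate 3 at 1 h and without root water replicate 1 at 2 h and 3 h. Each gene of the 6 lists and the clock list given with an adjusted p above, except CHS at 3 h, kept its call, at the times given, when any 1 library was left out. The genes printed were mostly those that did so, and this says nothing of the others. Of all genes named by the rule, 10 of 18, 9 of 13 and 2 of 9 kept every call in shoots at 1, 2 and 3 h. In roots these were 1 of 5, 1 of 4 and 1 of 5.

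The organ difference was called for 7 of 63 light genes at 1 h, and for 12 without shoot SHAM 1 h replicate 3. Of the 7, 2 had a larger effect in shoots than in roots and 5 a smaller one, where 1.97% and 3.96% of all genes were called. All 20 green tissue markers were negative in this contrast, with a median of -2.36. Root SHAM 1 h replicate 1 held 2.14% green marker counts, and its part in the smaller effects was not tested. CHS stood at 2.62 ± 0.41 (edgeR adjusted p = 0.000587), FKF1 at -2.04 ± 0.40 (edgeR adjusted p = 0.00469), MYBD at -1.37 ± 0.31 (edgeR adjusted p = 0.0108) and the clock gene ELF4 at -2.29 ± 0.36 (edgeR adjusted p = 0.000577). At 2 h 2 were called, MYBD at -1.60 ± 0.30 and SEP2 at -1.52 ± 0.29 (edgeR adjusted p = 0.00315 and 0.00342), against 3.34% of all genes. At 3 h edgeR called 0 of 63, against 1.73% of all genes, with 5 at an unadjusted p under 0.05 and 0 called by DESeq2.

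In water, 41 of 63 light genes were higher and 9 lower in shoots than in roots after TMM scaling, where 25.1% of all genes were higher and 25.1% lower. Scaling by total count alone moved the median of all genes by -1.07 and called 1686 higher and 6402 lower. Counts and log2 differences between organs therefore depend on the scaling. In the chlorophyll and PIF lists 13 of 14 and 8 of 11 were higher, whereas 7 of 11 HY5 and UV-B targets were lower in shoots, as ELIP1 and ELIP2 were. CHS averaged 88.4 ± 9.20 CPM in shoots and 3123 ± 531 CPM in roots (SD, n = 3 each). After TMM scaling its log2 difference was -4.07 ± 0.33 (edgeR adjusted p = 3.71e-10), smaller than the CPM means alone would give. MYB12, an activator of flavonol synthesis, stood at -4.42 ± 0.61 and UGT84A1 at -4.48 ± 0.63 (edgeR adjusted p = 2.02e-06 and 2.44e-06). BBX14 and BBX15 stood at 8.21 ± 0.57 and 7.83 ± 0.62, higher in shoots (edgeR adjusted p = 4.25e-11 and 3.01e-10).

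The genes with the most similar pattern to each tested gene were sought among 6731 others with at least 10 CPM on average, by the root mean square difference over the 8 group means of centred log2 CPM. CP1, a calcium-binding protein gene (AT5G49480), came first for both ELIP1 and ELIP2, at 0.35 and 0.42, where the genes' own spread over the groups was 1.84 and 1.70. CP1 had 56.4, 9.41 and 3.64 CPM in shoots after 1 h of SHAM, against 3.71, 0 and 0.276 CPM in water, so 1 library carried most of its shoot mean. For BBX28 AT1G19380 was nearest at 0.62 and BBX6 followed at 0.68. For HY5 GLN1;4, a glutamine synthetase gene, was nearest at 0.23.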

How the data were processed

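Seedling roots and shoots were profiled by MARS-seq, per the labels' protocols, and the submitters' processing notes list HTSeq, STAR 2.4.2a, DESeq2, cutadapt and bcl2fastq. Whole-number counts per gene and library were deposited by the authors. Whether molecular identifiers were collapsed and which genome build was used are not given in the sources used here. Another 48 per-sample columns of that table, with normalized or transformed values, were not used. Each gene in the table had at least 6 counts in its highest library, and 16082 of 16183 loci matched a RefSeq locus tag.

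Counts were tested with edgeR 4.0.16 (glmQLFit and glmQLFTest) in R 4.3.3 after filterByExpr (minimum count 10, total 15) and TMM scaling, with Benjamini-Hochberg adjustment over all genes tested. One model per organ held 12 libraries, and 1 model of all 24 gave the organ differences and the water comparison. CPM was computed from library totals. Alternatives included DESeq2 1.42.0, other scalings, no filter, a replicate block, other sets of libraries and leaving out each library. The steps were tested on simulated counts in which a limited set of genes changed in a single group. Those counts held no wide shift between treatment and water and no green-rich library, so they do not test the scaling under either.

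The members, lists and rule for named genes were chosen with earlier results of these data known. The rule took up to 3 called genes per list and comparison by fold change, if 1 of the groups averaged 10 CPM or more, and the 3 nearest patterns per gene. Part of them is printed, mostly those that kept their call when any 1 library was left out. FHY1 was named after its value was seen, as were the genes that fell among the other B-box genes in shoots. Replicates were separate pools of seedlings, per the labels' protocols. Same-numbered libraries correlated between -0.62 and 0.54, so the numbers were not taken to pair libraries.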

Additional observations from a re-analysis of the deposited data

Results flagged for a closer look

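The following genes were past the threshold for an organ difference in the effect of SHAM, by an interaction term over 24 libraries. Values are the log2 effect in shoots minus that in roots. At 1 h these were ELIP1 (3.18), ELIP2 (2.77), HY5 (-1.63), BBX5 (-1.41), BBX15 (-2.58), FKF1 (-2.04), CHS (2.62), MYBD (-1.37), SEP2 (-1.26), HEMA1 (2.36) and ELF4 (-2.29). At 2 h they were HY5 (-2.31), MYBD (-1.60), SEP2 (-1.52), PRR5 (2.63) and ELF4 (-1.42). At 3 h it was ELIP2 (-1.91). ELIP1, ELIP2 and HY5 were picked with these values known, so their calls are not evidence of a difference. The call for ELIP2 at 3 h held in 6 of 17 alternatives. BBX5, BBX15, SEP2 and HEMA1 at 1 h, PRR5 and ELF4 at 2 h and ELIP2 at 3 h lost the call when at least 1 library was left out. The largest edgeR adjusted p over the alternatives of BBX15 was 0.377 and that of HEMA1 0.164.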

How the results depend on the processing

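With 3 libraries a group, numbers of calls moved with the libraries used. Leaving out 1 library each gave 510 to 1533, 822 to 1136 and 1001 to 1718 called genes in roots at 1, 2 and 3 h, where all libraries gave 1302, 1490 and 1744. In shoots the ranges were 898 to 1449, 761 to 1201 and 417 to 729, where all libraries gave 1444, 1356 and 771. For organ differences they were 308 to 1127, 195 to 341 and 79 to 150, where all libraries gave 694, 391 and 202, and for water 5049 to 5904, against 5877. Light genes gave 1 to 6, 1 to 5 and 1 to 4 in roots, 17 to 23, 10 to 13 and 3 to 9 in shoots, 5 to 12, 2 to 3 and 0 to 0 for organ differences and 48 to 50 in water.

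Fitting the 6 libraries compared alone gave 822 called genes in roots at 1 h, and no filter on low counts gave 125 for the organ difference at 3 h. The 5 light genes called in roots at 1 h became 3 with scaling by total count alone, 8 without a filter, 8 with DESeq2, 2 with the 6 libraries alone and 11 with all 24. The 4 at 2 h became 7 with the 6 libraries alone and 8 with all 24, and the 9 in shoots at 3 h became 5 with all 24. The cause was not tested. LUX between shoots and roots in water turned to -0.0453 with scaling by total count alone, which gave 1686 genes higher and 6402 lower, where TMM gave 2942 and 2935. That scaling moved the median gene by -0.25, -0.34 and -0.36 in roots at 1, 2 and 3 h.

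With the replicate number as a block, light genes called in roots at 1 h were 2 in place of 5, and HY5 in roots at 2 h lost its call at 0.68 ± 0.21. The numbers were not taken to pair the libraries, although correlations over 3 libraries a group cannot exclude pairing.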
